A study of Arabidopsis thaliana with 8 samples.

Results

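The genes described here are 10 R2R3 MYB transcription factors that switch on secondary wall genes in Arabidopsis thaliana: MYB46 (AT5G12870), MYB83 (AT3G08500), MYB103 (AT1G63910), MYB58 (AT1G16490), MYB63 (AT1G79180), MYB85 (AT4G22680), MYB20 (AT1G66230), MYB42 (AT4G12350), MYB43 (AT5G16600) and MYB61 (AT1G09540). They were taken by locus, through the RefSeq transcript that each array probe names, from the 25410 genes named on the array. All 10 were on the array, with 13 probes among them, and all 10 were among the 19609 genes tested. Each was well above background on all 8 arrays, so none of the values below is a bound.

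RNA came from stems 10 cm long, read on single-colour Agilent arrays. The transgenic group of 4 arrays carried NST3pro:CEF2-VP16:HSP in the nst1-1 nst3-1 background (CEF2-VP16 nst1 nst3), and the other 4 arrays were the nst1-1 nst3-1 double mutant alone (nst1 nst3). In the construct the promoter of NST3 drives an AP2/ERF factor, CEF2 in the sample labels and ERF035 in the series' design text, joined to the viral activation domain VP16. Both groups are Col0 plants and both carry mutations in NST1 and NST3, so neither has the normal fiber switch, and no wild type was analysed here.

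Secondary walls are laid down inside the primary wall of fibers and vessels and consist of cellulose, xylan and lignin. NAC switches, NST1 and NST3 in fibers and the VND factors in vessels, activate MYB46 and MYB83, and these activate the wall genes and further MYB factors. MYB58, MYB63, MYB85, MYB20, MYB42, MYB43 and MYB103 act closer to the lignin genes, while MYB61 acts in xylem, seed mucilage and guard cells. The series asks, by its title, how AP2/ERF factors thicken the primary walls of fibers without NST1 and NST3, and the single comparison sets the transgenic stems against the double mutant.

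The array's 75th percentile of processed signal was 2344 to 3255 units in the transgenic group and 2774 to 3642 units in nst1 nst3, and all levels are given as log2 of the signal over that percentile. The labels do not give separate plants for the 4 arrays of a group, and p-values therefore reflect nothing beyond the spread among these samples, possibly a technical one. Each group lay on 1 slide of its own, and the effects of slide and of genotype cannot be told apart. Arrays correlated at r = 0.987 to 0.994 within the transgenic group and at 0.953 to 0.987 within nst1 nst3. The transgene's own gene, ERF035 (AT3G60490), read 4.14 ± 0.11 in transgenic stems and -3.58 ± 1.56 in nst1 nst3 stems (SD, n = 4 each), a rise of 7.72 ± 0.68 (SE) that was 6.95 without nst1 nst3 array 3. Marker genes of stem vessels, phloem, cambium and epidermis were detected in both groups, but the epidermal PDF1 lay near the floor of -6.64, at -6.39 to -5.54 on transgenic arrays and -6.06 to -5.74 on nst1 nst3 arrays.

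Of the 10 MYB genes 7 rose in transgenic stems and none fell, against 29.5% of all genes higher and 24.8% lower (limma, Benjamini-Hochberg adjusted p under 0.05 over all genes, the rule for every call here), or 54.2% in either direction. The change was above 0 for 9 of the 10, as for 52.6% of all genes. At an unadjusted p under 0.05, MYB42 was the only one lower. MYB61, MYB58, MYB63, MYB46 and MYB20 rose at least 2-fold, which 10.7% of all genes did. The median change of the 10 was 0.94 log2 units, and that of all genes was 0.03. MYB85, MYB43 and MYB42 did not pass. Agilent's E1A spike-in probes averaged 0.38 to 0.50 more (log2) on transgenic arrays after this scaling, and scaling on them instead moved the median gene to -0.39 and gave 10.8% of genes higher and 40.0% lower. On that scale MYB61, MYB58, MYB63, MYB46 and MYB20 rose, MYB42 fell and the median of the 10 was 0.50. With only arrays 1 and 4 of nst1 nst3, 9 of the 10 rose and none fell, beside 6062 of all genes higher and 5034 lower. The genes gained were MYB85 (0.57) and MYB43 (0.79). Arrays 2 and 3 held the lowest and highest nst1 nst3 values of MYB43, and array 2 the highest of MYB85. Arrays 2 and 3 also held extreme values of MYB46, MYB83 and MYB103. Leaving them out therefore narrows the spread of all these genes by construction. In whole stems, more cells of a type and more RNA per cell cannot be told apart.

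**Figure D1:**
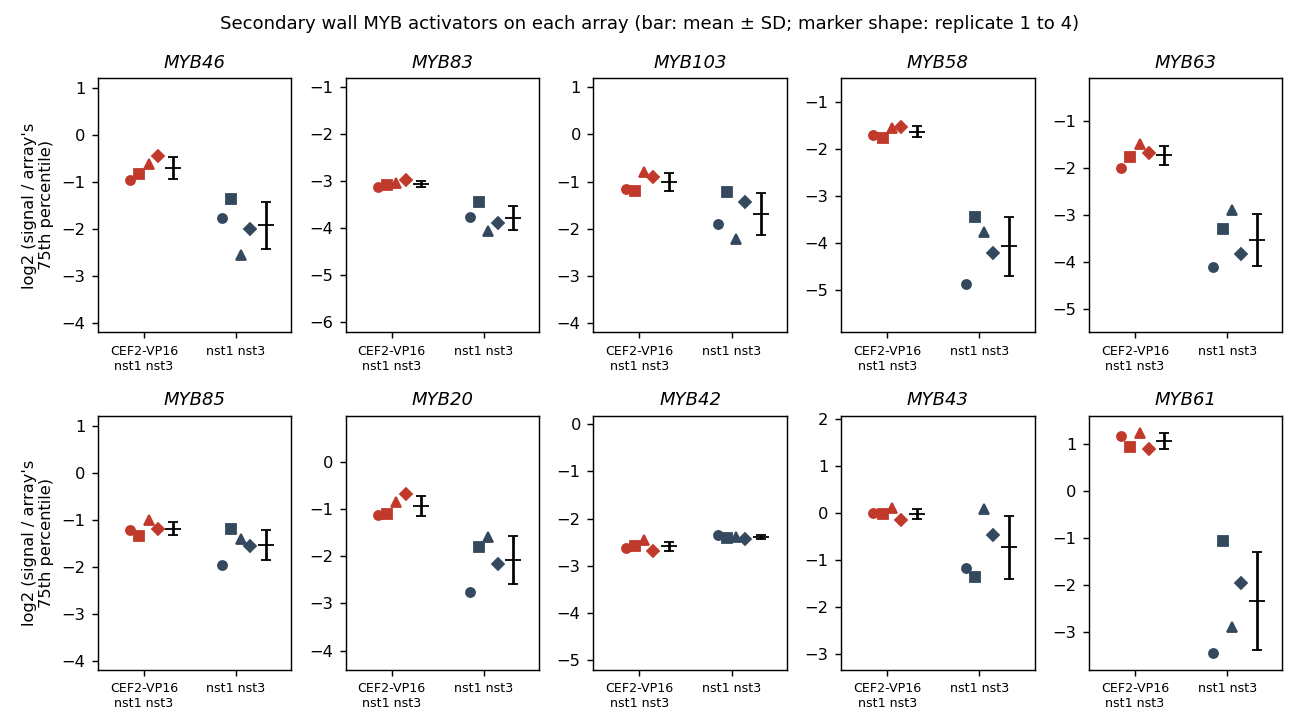
Level of each MYB gene on each array, as log2 of processed signal over the array's 75th percentile, with transgenic arrays (red) left of nst1 nst3 arrays (dark blue) and the mean ± SD beside each group of 4. Every panel spans the same number of log2 units, so MYB61 and MYB58 show the widest gaps, and MYB85 and MYB43 overlap between groups.

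MYB46 and MYB83 are the paired switches below the NAC factors and can replace each other. MYB46 read -0.95, -0.82, -0.60 and -0.44 on transgenic arrays 1 to 4, against -1.76, -1.35, -2.55 and -2.001 on nst1 nst3 arrays 1 to 4. All transgenic arrays lay above all nst1 nst3 arrays, as for 27.9% of all genes, and nst1 nst3 array 3 was the lowest. The rise was 1.21 ± 0.25 log2 units (SE, n = 4 per group; limma adjusted p = 0.00410), or 2.32-fold. MYB83 read -3.13, -3.09, -3.05 and -2.99 on transgenic arrays, against -3.77, -3.45, -4.06 and -3.90 on nst1 nst3 arrays. The groups again did not overlap, and the transgenic arrays lay within 0.14 log2 units of each other. MYB83 rose by 0.73 ± 0.13 (limma adjusted p = 0.00217). With normexp background correction it read 0.48, and with spike-in scaling it read 0.29 and did not pass (adjusted p = 0.178), while MYB46 read 0.78 and did (0.0197).

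MYB103 is needed for syringyl lignin through the hydroxylase gene F5H1. It read -1.15, -1.20, -0.80 and -0.90 on transgenic arrays, against -1.91, -1.23, -2.21 and -1.43 on nst1 nst3 arrays. The groups were separated by a gap of 0.03, with nst1 nst3 array 2 just below the lowest transgenic array. MYB103 rose by 0.68 ± 0.22 (limma adjusted p = 0.0300), the weakest of the calls. It missed the threshold without transgenic array 3 (0.61, adjusted p = 0.0797) or 4 (0.64, 0.0731) and without nst1 nst3 array 1 (0.61, 0.0782) or 3 (0.51, 0.0506), and with spike-in scaling it read 0.25 (0.405). F5H1 (AT4G36220) itself was 1.57 ± 0.26 higher.

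MYB58 and MYB63, close relatives that bind promoters of lignin genes, had the largest rises after MYB61. MYB58 read -1.71, -1.76, -1.54 and -1.53 on transgenic arrays, against -4.87, -3.44, -3.76 and -4.22 on nst1 nst3 arrays. In signal units these are 998, 693, 897 and 840 on transgenic arrays and 125, 255, 247 and 196 on nst1 nst3 arrays. A gap of 1.68 log2 units separated the groups, and the nst1 nst3 arrays were spread over 1.42 units and the transgenic arrays over 0.23. The change was a rise of 2.44 ± 0.28, or 5.41-fold (limma adjusted p = 0.000304), and a second probe of the gene gave 2.15 ± 0.30. MYB63 read -1.99, -1.76, -1.49 and -1.69 on transgenic arrays, against -4.10, -3.29, -2.89 and -3.84 on nst1 nst3 arrays. No values overlapped, and here nst1 nst3 array 3 was the highest of its group. MYB63 rose by 1.80 ± 0.26, or 3.48-fold (limma adjusted p = 0.000834). Both genes passed in each fit that left out 1 array, with changes of 2.17 to 2.65 for MYB58 and 1.61 to 2.01 for MYB63, and with spike-in scaling they read 2.0 and 1.36.

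MYB20, MYB42, MYB43 and MYB85 are related activators of lignin genes and of phenylalanine supply, and they did not move alike. MYB20 read -1.12, -1.10, -0.85 and -0.67 on transgenic arrays, against -2.75, -1.80, -1.59 and -2.17 on nst1 nst3 arrays. It did not overlap between groups and rose by 1.14 ± 0.25, or 2.21-fold (limma adjusted p = 0.00532), and by 0.71 with spike-in scaling.

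MYB43 read -0.01, -0.02, 0.10 and -0.15 on transgenic arrays, against -1.17, -1.36, 0.09 and -0.46 on nst1 nst3 arrays. The nst1 nst3 arrays 1, 2 and 4 were lower than every transgenic array, and array 3 lay among the transgenic values. Its change of 0.70 ± 0.30 did not pass (limma adjusted p = 0.0781), and without nst1 nst3 array 3 it was 0.97 and passed (0.00730). A second MYB43 probe gave 0.66 ± 0.35.

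MYB85 read -1.21, -1.33, -1.002 and -1.18 on transgenic arrays, against -1.95, -1.18, -1.41 and -1.54 on nst1 nst3 arrays. Only nst1 nst3 array 2 lay among the transgenic values. The change was 0.34 ± 0.16 (limma adjusted p = 0.111), or 0.46 without nst1 nst3 array 2, where it passed (0.0330), and -0.094 with spike-in scaling. MYB42 read -2.63, -2.58, -2.45 and -2.68 on transgenic arrays, against -2.35, -2.41, -2.39 and -2.44 on nst1 nst3 arrays. It was the one gene of the 10 with a value below 0 for the change, -0.19 ± 0.08, and the groups were 0.01 apart. That change did not pass (limma adjusted p = 0.0639), but did without transgenic array 3 (-0.23, 0.0489) and with spike-in scaling (-0.63, 0.0121). The second MYB42 probe gave -0.12 ± 0.10.

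MYB61, which promotes lignin in xylem and mucilage in seeds and helps close stomata, rose most. It read 1.17, 0.94, 1.24 and 0.89 on transgenic arrays, against -3.44, -1.07, -2.90 and -1.96 on nst1 nst3 arrays. The gap between the groups was 1.96 log2 units although the nst1 nst3 arrays were spread over 2.37. The rise was 3.40 ± 0.46, or 10.6-fold (limma adjusted p = 0.000640), with 0.872% of all genes rising more. It ranged from 3.03 to 3.82 in the fits that left out 1 array and was 2.96 with spike-in scaling. Markers of guard cells, a cell type in which MYB61 is known to act, did not rise: of FAMA, MYB60, KAT1 and HT1, KAT1 and HT1 were lower and FAMA and MYB60 read -0.08 and -0.26. Their mean level, averaged before taking logs, ran from -0.93 to -0.80 on transgenic arrays and from -0.92 to 0.16 on nst1 nst3 arrays. The part of guard cells in the MYB61 values was not tested.

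Permuting the 8 arrays over all 70 splits (exact permutation test, two-sided) gave p = 0.0286, the smallest it can give, for 8 of the 10 genes, MYB42 among them, and 0.114 for MYB85 and MYB43. Groups did not overlap for 50.7% of all genes.

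**Figure D2:**
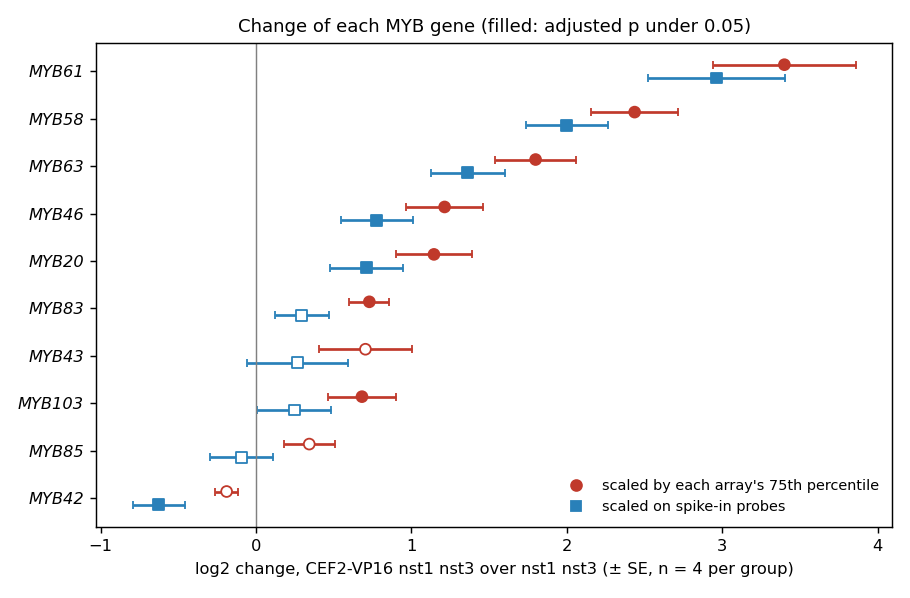
Change of each MYB gene on the log2 scale (± SE, n = 4 per group), scaled by the 75th percentile (red circles) and on spike-in probes (blue squares), with filled symbols for adjusted p under 0.05. MYB61, MYB58, MYB63, MYB46 and MYB20 are filled on both scales, and MYB42 lies left of 0 on both.

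Whether the genes changed by different amounts was asked with their ratio on each array, which no scaling of the array can alter. For each of the 45 pairs the log2 ratio was compared between groups by an exact two-sided permutation test, adjusted over the 45. Of these, 30 pairs differed (adjusted p = 0.0429 each, all at the smallest p the test can give) and 15 did not pass. Each gene enters 9 pairs, so the 45 are not independent. Whether a pair at the smallest p passes also depends on how many of the other pairs reach that p. Pairs of other genes were not counted, so the 30 have no background share beside them. MYB61, MYB58 and MYB42 differed from all 9 other genes: the first rose more than every other, MYB58 more than all but MYB61, and MYB42 was the lowest against each. The widest contrast was MYB61 over MYB42, with ratios of 3.80, 3.52, 3.70 and 3.57 on transgenic arrays and -1.09, 1.34, -0.51 and 0.49 on nst1 nst3 arrays, a change of 3.59 ± 0.54 (SE).

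Within the close pairs of relatives, MYB46 rose more than MYB83 by 0.48 ± 0.16 and MYB58 more than MYB63 by 0.64 ± 0.18, both past the test. MYB85 over MYB42 changed by 0.53 ± 0.18, which also passed, with a ratio of at least 1.25 on transgenic arrays and at most 1.23 on nst1 nst3 arrays. MYB20 over MYB43 changed by 0.44 ± 0.33 (exact permutation, adjusted p = 0.330), and MYB46 over MYB20 by 0.07 ± 0.41 (0.957). MYB83, MYB43 and MYB103 stood within 0.05 log2 units of each other in their change, and none of these 3 pairs passed. The standard error was 0.17 for MYB83 over MYB103 and 0.46 and 0.51 for the pairs with MYB43.

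**Figure D3:**
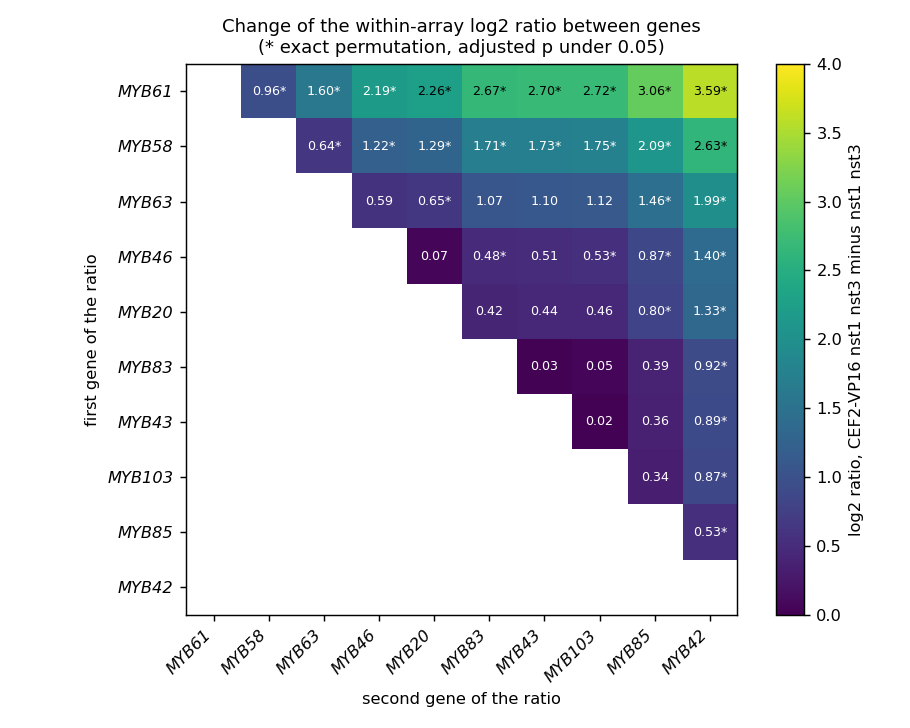
Change of the within-array log2 ratio (transgenic minus nst1 nst3) for each of the 45 pairs, with genes ordered by their own change and the row gene over the column gene; colour and number give the change and a star marks adjusted p under 0.05. The rows of MYB61 and MYB58 and the column of MYB42 are starred throughout.

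The nst1 nst3 arrays varied more than the transgenic ones for 9 of the 10 genes, with MYB42 the exception. The median SD of the 10 was 0.15 among transgenic arrays and 0.50 among nst1 nst3 arrays, where all genes had medians of 0.13 and 0.21. The nst1 nst3 arrays did not deviate in the same way for each gene. Array 2 held the highest nst1 nst3 value of MYB46, MYB83, MYB103, MYB58, MYB85 and MYB61, and array 3 that of MYB63, MYB20 and MYB43. Array 3 was also the lowest for MYB46, MYB83 and MYB103, by 0.64, 0.26 and 0.52 log2 units under the group mean, while array 1 was the lowest for MYB58, MYB63, MYB85, MYB20 and MYB61. Over all genes, 29.7% were highest on array 2 and 34.0% on array 3, and 25.6% were lowest on array 1 and 22.3% on array 3. MYB61 spanned the most, from a deviation of -1.098 on array 1 to one of 1.27 on array 2.

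Some lists of genes around the MYB tier were also at an extreme on nst1 nst3 array 3, and others were not. The vessel switches VND1 to VND7 were lowest on nst1 nst3 array 3 in 7 of 7 cases, as were the 3 secondary wall cellulose synthases and 8 of 9 xylan genes. NST1, NST2 and NST3 were highest on that array, and so were the 4 MYB repressors of phenylpropanoid genes, MYB3, MYB4, MYB7 and MYB32. Lignin pathway genes were lowest on array 3 in 7 of 18 cases and on array 4 in 6, other wall regulators on array 3 in 4 of 10, and vessel markers on array 3 in 2 of 5 and on array 2 in 3. Of all genes, 34.0% were highest and 22.3% lowest on array 3, and 33.4% were lowest on array 2 and 18.8% on array 4. The touch and wounding genes TCH4, TCH2, TCH3, WRKY40 and JAZ7 fell in transgenic stems. Their mean level, averaged before taking logs, was 0.61 to 1.88 on transgenic arrays and 3.79 to 5.35 on nst1 nst3 arrays. Within nst1 nst3, 4 of these 5 genes were lowest on array 3. The part of the touch and wounding genes in the MYB values was not tested.

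**Figure D4:**
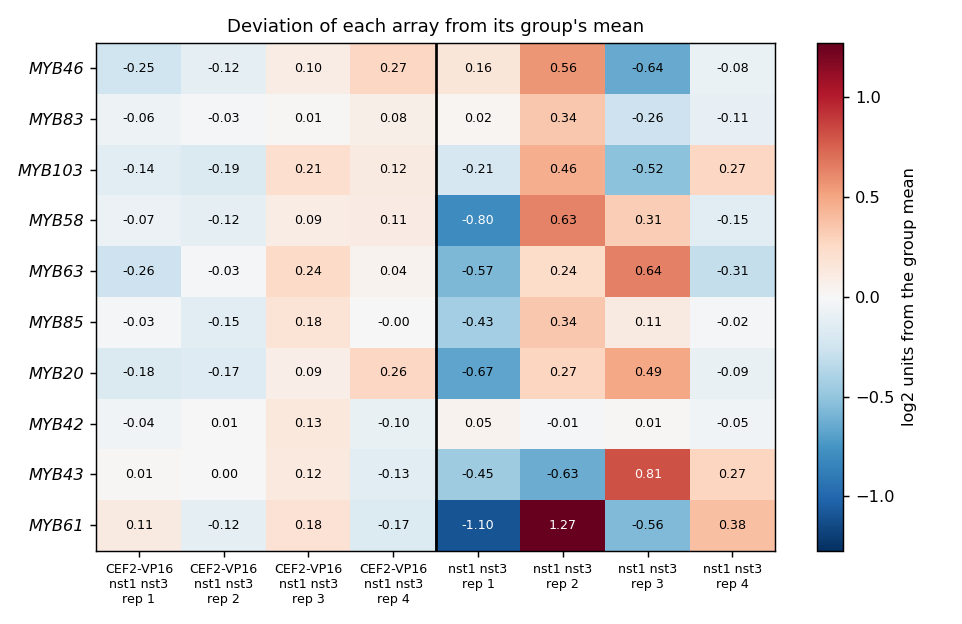
Deviation of each array from its own group's mean, in log2 units, for the 10 MYB genes, with the 4 transgenic arrays left of the 4 nst1 nst3 arrays. The nst1 nst3 columns carry the strongest colours, and array 3 is blue for MYB46, MYB83 and MYB103 and red for MYB63, MYB20 and MYB43.

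Above the MYB factors, 6 of 10 NAC switches rose and 1 fell, with a median of 0.58. The shares over all genes were 29.5% higher and 24.8% lower. The 6 were vessel factors: of the 7 VND genes all but VND5 rose, among them VND1 (AT2G18060) at 1.35 ± 0.23, VND6 (AT5G62380) at 1.27 ± 0.30 and VND2 (AT4G36160) at 0.94 ± 0.24. VND1 lay near the floor in nst1 nst3 stems, at -6.54 to -5.62, and its change was 0.77 with normexp background correction, below the 1.18 of VND6. The mutated NST3 (AT1G32770) and NST1 (AT2G46770) read -0.52 ± 0.22 and -0.53 ± 0.24 and did not pass (limma adjusted p = 0.0760 and 0.102), and NST2 (AT3G61910) fell by 2.67 ± 0.49. Both passed as lower with spike-in scaling (-0.96 each, adjusted p = 0.00904 and 0.00671). NST3 also passed without nst1 nst3 array 1 (-0.70, 0.0204) and with normexp (-0.59, 0.0404), and NST1 without transgenic array 2 (-0.71, 0.0310); the position of either probe within the mutated genes is not known here. On the spike-in scale 2 of the 10 rose and 3 fell, beside 10.8% of all genes higher and 40.0% lower. Vessel protease genes split, with XCP1 and XCP2 higher and MC9 and the nuclease gene BFN1 lower, and on the spike-in scale 1 of the 5 vessel markers rose and 3 fell. Their median change was -0.23. Their mean level, averaged before taking logs, is dominated by the brightest probe, XCP2. That level ran from 2.97 to 3.16 on transgenic arrays and from 2.44 to 2.94 on nst1 nst3 arrays. All 3 cambium markers, WOX4, PXY and ANT, rose, by 2.28, 1.01 and 1.74. Their mean level, averaged before taking logs, was 0.44 to 0.85 on transgenic arrays and -0.86 to -0.52 on nst1 nst3 arrays. Of the phloem markers SEOR1 and SEOR2 rose and APL fell, and of the epidermal ones 3 of 4 rose; on the spike-in scale no phloem marker rose and 2 fell, no epidermal marker passed, and all 3 cambium markers rose. The part of these cell types in the MYB values was not tested.

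Beside the 10 MYB genes, 5 of 10 other regulators of the secondary wall rose and 1 fell, with a median of 0.38. The shares over all genes were 29.5% higher and 24.8% lower. MYB54 (AT1G73410) rose by 1.27 ± 0.14, the zinc finger gene C3H14 (AT1G66810) by 0.92 ± 0.14 and the NAC gene SND2 (AT4G28500) by 0.70 ± 0.16, while MYB69 (AT4G33450) fell. With the mean of its probes MYB54 rose by 0.83. MYB69 was well above background on 2 of 4 transgenic arrays and read -6.64, the floor, to -5.74 there and -4.59 to -2.46 on nst1 nst3 arrays, so that the size of its fall, -3.07 as fitted and -1.82 with normexp, is uncertain. On the spike-in scale 1 rose and 4 fell, beside 10.8% of all genes higher and 40.0% lower. In the fits without transgenic array 3 or 4 or nst1 nst3 array 1, 3 rose, and without nst1 nst3 array 2 or 3, 2 fell. Of the 4 MYB repressors MYB32 (AT4G34990) rose by 1.12 ± 0.31 and MYB3 (AT1G22640) by 0.88 ± 0.29, neither with spike-in scaling, and MYB3 missed the threshold in 7 of the 8 fits without 1 array, passing only without nst1 nst3 array 3.

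Below the MYB factors, the lignin pathway genes went both ways. Of 18, 8 rose and 4 fell, with a median of 0.04, beside 29.5% of all genes higher and 24.8% lower. With spike-in scaling 5 rose and 8 fell, beside 10.8% of all genes higher and 40.0% lower. Next to F5H1, CYP98A3 (AT2G40890) rose by 1.30 ± 0.13 and the laccase gene LAC17 (AT5G60020) by 1.20 ± 0.26, while PAL2 (AT3G53260), at the entry to the pathway, fell by 1.30 ± 0.20. Without transgenic array 4, 2 lignin genes fell. Arogenate dehydratases, which make phenylalanine for lignin, likewise split, 3 of 6 rising and 2 falling: ADT3 (AT2G27820) and ADT1 (AT1G11790) rose by 1.47 ± 0.20 and 0.58 ± 0.14, and ADT5 (AT5G22630) and ADT4 (AT3G44720) fell by 1.47 ± 0.22 and 0.48 ± 0.13. On the spike-in scale 1 of the 6 rose and 3 fell.

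Cellulose and xylan genes are direct or indirect targets of MYB46 and MYB83. CESA8 (AT4G18780), CESA4 (AT5G44030) and CESA7 (AT5G17420) rose by 0.86 ± 0.15, 0.65 ± 0.17 and 0.49 ± 0.14, and none of them with spike-in scaling. CESA7 missed the threshold without transgenic array 3 (0.44, limma adjusted p = 0.0515). Of 9 xylan genes 6 rose, none was lower and the median was 0.59, beside 29.5% of all genes higher and 24.8% lower. On the spike-in scale 2 xylan genes rose and 2 fell, beside 10.8% of all genes higher and 40.0% lower. Without transgenic array 1, 3 or 4 or nst1 nst3 array 4, 3 rose, and without nst1 nst3 array 1 or 3, 1 fell. F8H (AT5G22940) rose by 1.81 ± 0.28, IRX9 (AT2G37090) by 0.98 ± 0.17 and IRX10 (AT1G27440) by 0.74 ± 0.11. IRX15L (AT5G67210), at 1.03 ± 0.37, missed the threshold in 6 of the 8 fits without 1 array.

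**Figure D5:**
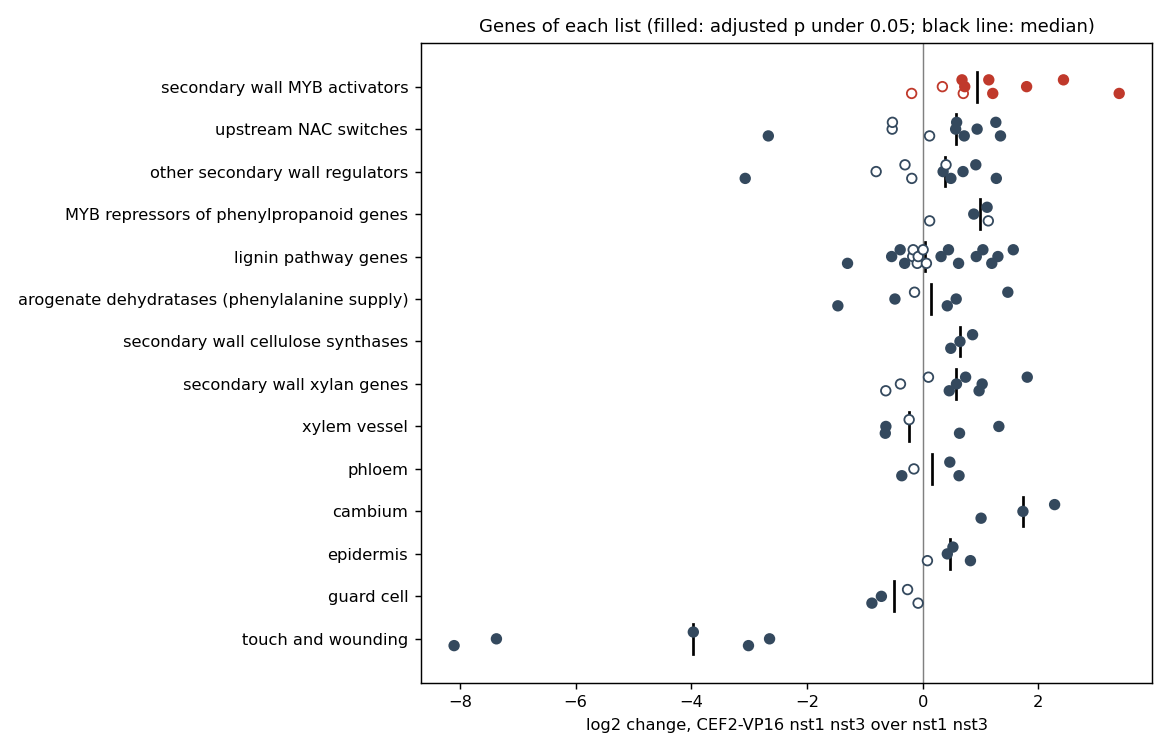
Log2 change (transgenic over nst1 nst3) of each tested gene in the list of 10 MYB genes (red) and in the lists of regulators, wall genes and markers (dark blue), with filled points for adjusted p under 0.05 and a black line at the median. The MYB list has its median at 0.94, the lignin pathway list at 0.04 and the touch and wounding list at -3.97.

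Among 115 other genes with a numbered MYB name, 62 were tested, of which 16 rose and 20 fell, with a median of -0.02. Of all genes, 29.5% were higher and 24.8% lower. MYB29 (AT5G07690), a regulator of glucosinolate synthesis, rose by 4.20 ± 1.18, but the groups overlapped, with -0.20 on transgenic array 3 and 0.37 on nst1 nst3 array 2, and the change was 5.42 without nst1 nst3 array 2. MYB50 (AT1G57560), a close relative of MYB61, rose by 2.27 ± 0.29 and MYB16 (AT5G15310), a cuticle and epidermis factor, by 2.23 ± 0.36. MYB95 (AT1G74430) fell by 3.08 ± 0.87, which missed the threshold without nst1 nst3 array 1 (-2.71) and ranged from -3.90 to -2.43 over the 8 fits without 1 array. Its groups overlapped, with -1.71 on transgenic array 4 and -1.74 on nst1 nst3 array 3. MYB15 (AT3G23250), a factor of stress-induced lignin, was not well above background on any transgenic array. It was at least 18.8-fold lower there on Agilent's processed signal, by its mean against the higher of the lowest detected signal and its own. With normexp background correction its change was -2.74 ± 0.92, a smaller fall than that bound of 4.23 log2 units. On the processed signal its means were -6.55 in transgenic and -2.31 in nst1 nst3 stems (limma adjusted p = 0.0262). On nst1 nst3 array 3 it read -6.64, within the transgenic values. The bound was 10.5-fold without nst1 nst3 array 2, 12.8-fold without array 1 and 51.1-fold without array 3. MYB15 missed the threshold in 7 of the 8 fits without 1 array and with no filter on dim probes (limma adjusted p = 0.0623). It passed that filter through nst1 nst3 arrays alone.

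Over the 8 arrays the profiles most like that of MYB61 were those of AT1G74070 (Pearson r = 0.999), AT5G44680 (0.998) and RABA5a (AT5G47520, 0.997). For MYB46 they were RIC4 (AT5G16490, 0.995), AT1G24480 (0.993) and UNE9 (AT3G10560, 0.992). The difference between the 2 groups carries much of such a correlation: 1280 genes, 6.53% of those tested, exceeded an r of 0.95 with MYB61 and 471, or 2.40%, with MYB46.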

How the data were processed

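The deposited intensity is Agilent's processed signal, corrected for background on a linear scale, from Feature Extraction 11.5.1.1 on a TAIR10 grid per the file headers; the submitters' processing notes name version 9.1.3.1. A table deposited by the authors gives the natural log of that signal minus a constant, 7.15 for transgenic and 7.39 for nst1 nst3 arrays, with column medians of -1.23 to -0.84 and -1.26 to -1.05; their origin is not stated.

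Signals of 43603 probes (control and outlier spots left out, spots averaged) were divided by the array's 75th percentile, floored at 0.01 and logged. Probes well above background on at least 4 of 8 arrays were kept, named by RefSeq accession through a TAIR10.1 gene table (34348 probes matched), and the brightest stood for each gene. Closely related genes may share signal. Groups were compared with limma 3.58.1 in R 4.3.3 (lmFit, eBayes, no covariates), tested on simulated data. The gap between a gene pair was tested by exact permutation.

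The members and lists were chosen with earlier results of these data known. All members were named, with up to 4 passing genes of each list by size of change, the 3 largest rises and falls among other MYB genes, the 3 profiles most like MYB61 and MYB46, and the targeted genes. Further genes and markers were named after their values were seen. Alternatives were normexp (on median signals, since mean signals were not among the columns), other scalings, the authors' table, other filters, a floor of 0.001, the mean of probes, each probe alone, trend and robust eBayes, array weights, a replicate block, and leaving out arrays. Promoter motifs were not analysed here. The number of arrays, 4 a group, limits the precision.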

Additional observations from a re-analysis of the deposited data

How the results depend on the processing

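The count of 7 rising MYB genes stayed between 5 and 9 under every alternative run. The count of falling ones was 1 in place of 0, MYB42 each time, with spike-in scaling, with no filter on dim probes (-0.19, adjusted p = 0.0259) and without transgenic array 3, and ran from 0 to 1 over the 8 fits without 1 array, where rising genes ran from 6 to 8. MYB85 changed sign with spike-in scaling (-0.094). MYB103 missed the threshold with no filter on dim probes (limma adjusted p = 0.0616), MYB85 passed with normexp (0.48) and array weights (0.47), and MYB43 with array weights (0.69). Of 213 member values under alternatives, 194 kept direction and side of the threshold. With other filters, the other floor, trend and robust eBayes or the replicate block, the change of each member stayed the same. Only its adjusted p could differ there, so this tally is not one of independent checks. The gene pairs that differed numbered 28 with normexp, against 30, and the ratios did not overlap for 30 to 35 pairs without 1 array, where 3 arrays against 4 cannot give an exact p under 0.0571. Over all genes, 2127 were higher and 7846 lower with spike-in scaling, against 5776 and 4858, and 2981 were lower in the authors' table. Same-numbered arrays did not deviate together (r = -0.04, -0.20, 0.16 and -0.40 for numbers 1 to 4). The labels state no pairing, and so few correlations cannot exclude one. With the replicate block 6 MYB genes rose, MYB103 missing the threshold (adjusted p = 0.0675), and over all genes 4715 were higher and 3904 lower. Which gene a dim probe reads, and levels between probes, cannot be compared on these arrays.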
